A study of Homo sapiens with 12 samples.

Results

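Collagens are the main structural proteins of the extracellular matrix. The collagen genes described here are the protein-coding genes of the count table whose symbol is COL, a number, A and a number, and 44 of its 58735 genes met that rule, out of 19951 that were protein-coding. Collagen chains wind around each other into a helix, with partners of the same or of a related gene, and fold in the endoplasmic reticulum before they are secreted. Fibrillar types build the fibrils of connective tissue, type IV builds the sheet-like network of basement membranes, and other types coat fibrils, anchor basement membranes or span the cell membrane. In the eye, the lens epithelium lays down the lens capsule, a basement membrane rich in type IV collagen.

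HLE-B3, an immortalised line of human lens epithelial cells, was used for RNA sequencing to compare WT cells with cells in which the autophagy gene ATG7 had been knocked out (ATG7 KO), with and without oxidative stress from hydrogen peroxide. The 4 groups were untreated WT cells at 0 h, WT cells after 12 h in 200 μM H2O2, untreated ATG7 KO cells at 0 h and ATG7 KO cells after 12 h in 200 μM H2O2, each with 3 libraries. ATG7 KO cells were made with CRISPR/Cas9, selected with puromycin and picked as individual clones, which the study's methods say were examined by Western blot. The files used here hold no protein data. The labels do not name the clone that was sequenced, so the loss of ATG7 and other differences between a clone and the WT line cannot be told apart. Treated and untreated cells also differ by 12 h of culture, which cannot be told apart from H2O2. The libraries held 15602183 to 17659496 reads on genes, and collagen genes took 1.31 to 1.41% of them in untreated WT, 0.685 to 0.714% in H2O2-treated WT, 0.875 to 1.29% in untreated ATG7 KO and 0.691 to 0.710% in H2O2-treated ATG7 KO cells. Replicates are described as biological, and the p-values measure the spread between these libraries. That spread was small. The chi-square over its degrees of freedom, near 1 for counting noise alone, was 2.11 to 4.84 between replicates. Exceptions were 87.8 and 86.1 for untreated ATG7 KO replicate 1 against replicates 2 and 3. Very small p-values reflect this spread and do not extend to other cultures or clones. In bulk RNA, fewer cells that express a gene and less RNA of it per cell cannot be told apart.

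ATG7, the targeted gene, had 433, 429 and 346 reads in untreated WT and 551, 539 and 561 in untreated ATG7 KO cells. It had 298, 260 and 300 reads in H2O2-treated WT and 319, 307 and 360 in H2O2-treated ATG7 KO cells. ATG7 mRNA was thus not lower in the ATG7 KO libraries, and since a small edit can disable a gene and leave its mRNA in place, the read counts do not check the genotype labels. The log2 fold change of ATG7 KO against WT was 0.47 (adjusted p = 0.0348) in untreated cells, or 0.43 (adjusted p = 6.0e-06) and called without untreated ATG7 KO replicate 1, and 0.15 (adjusted p = 0.135) in H2O2-treated cells. With H2O2, ATG7 fell in WT cells by 0.39 (adjusted p = 0.000372) on the log2 scale and in ATG7 KO cells by 0.70 (adjusted p = 0.00149), and the test of the difference between these responses gave -0.31 (adjusted p = 0.113). The fall in WT cells lost its call with a gene length correction, at -0.18 (adjusted p = 0.0931), and with limma, at -0.26 (adjusted p = 0.0167) with 1 added to FPKM and -0.36 (adjusted p = 0.0168) with 0.1 added. Without untreated ATG7 KO replicate 1 the fall in ATG7 KO cells was 0.66 and the difference -0.26 (adjusted p = 0.0968).

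Untreated ATG7 KO replicate 1 stood apart from the other libraries. Its mean Pearson correlation with its 2 replicates, across 13141 genes on the log scale, was 0.964, while the other 11 libraries had 0.980 to 0.995. Relative to replicates 2 and 3 of its group, the median log2 difference ran from 0.372 in the shortest of 4 equal length classes of genes through 0.057 and -0.165 to -0.430 in the longest. Collagen genes are long, with a median gene length of 8586 bases against 4970 over these genes, and 21 of the 24 collagen genes compared were lower in replicate 1, with a median of -0.524. Counts that rest on untreated ATG7 KO cells are therefore given with and without this library, as are most values of single genes. It is called replicate 1 below where the group is clear. Without it, p-values became smaller for many genes but not for all. Among called members they were larger for COL7A1 between the untreated lines and for COL25A1 with H2O2 in ATG7 KO cells. Some members without a call, such as COL13A1 and COL15A1 with H2O2 in ATG7 KO cells, also had larger ones. The other comparisons also varied with gene length: the median log2 fold change of H2O2-treated against untreated WT cells ran from 0.111 in the shortest class to -0.314 in the longest, and that of ATG7 KO against WT cells under H2O2 from -0.152 to 0.188. For these 2 comparisons, fold changes corrected for gene length are given where they move a called value by more than 1.5 times or change a call. For the others, collagens called only with the correction or only without replicate 1 are gathered after the single genes. The cause of these length trends was not tested.

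The cell type label was compared with marker genes. Of 13 lens epithelium markers, 4 had a mean above 1 FPKM (fragments scaled to gene length and library size, as deposited), namely CDH2, GJA1, SIX3 and CRYGS. CDH2 was the most abundant, at 97.9 to 184 FPKM. GJA1 ran from 23.7 to 51.8, the lens factor SIX3 from 1.85 to 3.21 and the crystallin CRYGS from 0.679 to 2.20 FPKM. PAX6 reached 1.35 and BFSP1 0.772 FPKM, and CRYAB reached 1.98 in H2O2-treated WT cells. The lens factors FOXE3, PROX1 and MAF and the lens proteins CRYAA, CRYBB2 and MIP had at most 0.394 FPKM in any library. Summed over the 13 lens markers, the level was 202, 191 and 193 FPKM in untreated WT, 147, 148 and 153 in H2O2-treated WT, 182, 210.2 and 213 in untreated ATG7 KO and 161, 168 and 168 in H2O2-treated ATG7 KO cells. Of 10 fibroblast or mesenchymal markers, 8 had a mean above 1 FPKM, led by VIM, and their sum was 395, 376 and 398, 365, 357 and 371, 447, 298 and 309, and 229.8, 232 and 237 FPKM in the same order of groups. In untreated WT cells CDH2 made up 169, 159 and 160 FPKM of the lens sum. VIM made up 328, 309 and 329 FPKM of the mesenchymal sum there. The sums thus mostly follow these genes and are no measure of cell type. DCN, a proteoglycan of fibroblasts, was at or near 0 throughout. KRT8 and KRT18 were the 2 of 5 markers of other epithelia above 1 FPKM, with the list sum at 115, 110.3 and 127, 109.8, 111 and 107, 171, 119.6 and 121, and 86.0, 89.1 and 88.4. None of the 3 endothelial or 2 leukocyte markers reached a mean of 1 FPKM, and neither sum passed 1 FPKM in a library. The part of these marker levels in the collagen results was not tested.

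Summed over all 44 genes, collagen mRNA stood at 1442, 1515 and 1469 FPKM in untreated WT cells and at 850.0, 831 and 819 in H2O2-treated WT cells. Untreated ATG7 KO cells had 1099, 1465 and 1416 FPKM, the lowest in replicate 1, and H2O2-treated ATG7 KO cells had 848, 876 and 878. All treated libraries lay below all untreated ones, and the treated groups of the 2 lines overlapped. Without COL1A1 the treated groups did not overlap, at 568, 562 and 554 FPKM in WT and 609, 628 and 635 in ATG7 KO cells. COL1A1 was the most abundant collagen mRNA per length in all 12 libraries, with 41.7 to 42.9% of the sum in untreated WT, 32.3 to 33.2% in H2O2-treated WT, 31.0 to 33.9% in untreated ATG7 KO and 27.6 to 28.3% in H2O2-treated ATG7 KO cells. The 10 most abundant genes, COL1A1, COL6A2, COL6A1, COL5A1, COL18A1, COL5A2, COL12A1, COL7A1, COL4A2 and COL4A1, took 95.7 to 97.6% of it. The fibrillar class alone gave 813, 845 and 817 FPKM in untreated WT and 389, 375 and 367 in H2O2-treated WT cells, and the type VI class 409, 435 and 423 and 323, 319 and 318. In ATG7 KO cells the fibrillar class gave 468, 682 and 666 FPKM untreated and 326, 340 and 334 with H2O2, below WT at each treatment. The type VI class gave 475, 541 and 518 and 365, 380 and 382 there, above WT at each treatment.

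Not all members could be tested. In each comparison genes with too few reads were left out, and 32 of the 44 members were tested in at least 1 comparison, 27 of them in all 5. COL10A1, COL2A1, COL20A1, COL24A1 and COL25A1 passed the filter in some comparisons only. The remaining 12 had too few counts in every comparison, with at most 13 reads in a library and at most 55 over all 12: the fibrillar COL3A1, the type IV chain COL4A3, the type VI-like COL6A6, COL28A1 and COL6A5, the fibril-associated COL9A1, COL14A1, COL19A1, COL21A1 and COL22A1, the transmembrane COL23A1, and COL26A1. COL6A5 and COL22A1 had no read in any library. A gene with low counts passes the filter through the group in which it is high. Counts over the tested members are therefore not counts over all 44. The calls and p-values of such genes also depend on that filter, among them COL2A1, COL10A1, COL15A1, COL20A1, COL24A1 and COL25A1. So do those of COL9A3 with H2O2 in WT cells and of COL13A1 between the lines under H2O2.

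The comparisons were H2O2 against untreated in each line, ATG7 KO against WT at each treatment, and the difference between the H2O2 responses of the lines. They share groups, so they are not independent of each other. A gene was called at an adjusted p under 0.01, and separately counted as passing the size rule where its log2 fold change was also beyond 1 in either direction with a mean above 1 FPKM in a compared group. With H2O2 in WT cells, 30 members were tested, of which 11 rose and 14 fell, against 30.9% and 30.1% of the 15913 genes tested. The size rule left 2 higher and 6 lower, against 7.30% and 5.24% of all genes, and the median log2 fold change was -0.18 over the members (-0.281 to -0.032 with 1 library left out) and -0.005 over all genes. With the length correction 12 rose and 12 fell, against 32.04% and 27.7% of all genes, and these medians were 0.037 and 0.024. The size rule then left 3 higher and 3 lower, against 1147 and 685 of the 15913 genes tested (11.5% together). With H2O2 in ATG7 KO cells, 29 members were tested and 3 rose and 8 fell, against 13.6% and 12.4% of all genes, with 1 and 2 past the size rule against 6.09% and 5.11%. Without untreated ATG7 KO replicate 1, 6 of 31 members rose and 15 fell, against 29.8% and 28.6%, with 1 and 6 past the size rule against 6.25% and 5.56%. The median over members was -0.533 with all libraries and -0.522 without replicate 1 (-0.529 to -0.389 with any 1 library left out), against -0.032 and -0.003 over all genes. With the length correction and all libraries, 5 rose and 13 fell, against 17.5% and 15.1%, and the medians were -0.553 and -0.011. The size rule then left 1 higher and 6 lower, against 1006 and 775 of the 15475 genes tested (11.5% together).

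Between the lines under H2O2, 12 of 31 members were higher and 12 lower in ATG7 KO than in WT cells, against 27.7% and 27.9% of all genes tested, and 5 and 2 passed the size rule, against 3.03% and 4.43%. The median was -0.023 over the members and -0.002 over all genes. With the length correction 10 were higher and 14 lower, against 25.96% and 27.2%, and the medians were -0.24 and -0.005. The size rule then left 5 higher and 3 lower, against 495 and 648 of the 15909 genes tested (7.18% together). In a fit of all 12 libraries 8 were higher and 7 lower, against 13.97% and 14.96% of all genes. Leaving out 1 library, the median over members ran from -0.033 to 0.007. In untreated cells, 5 of 28 members were higher and 0 lower in ATG7 KO, against 4.42% and 3.28%, with 4 and 0 past the size rule against 2.27% and 1.23%. For the 0 lower by edgeR, an unadjusted p under 0.05 was reached by 14 of the 28 in either direction. DESeq2 called 1 lower and limma 0, against 7.57% of all genes lower with DESeq2 and 2.74% to 2.87% with limma. In edgeR 1 was lower with no filter, against 2.42% of all genes, and 1 at an adjusted p under 0.05, against 8.76%. A fit of all 12 libraries had 3 lower and 10 higher, against 8.83% and 9.88%. None of these fits had a lower member past the size rule. Without replicate 1, 12 members were higher and 5 lower, against 18.2% and 17.9%, with 5 and 0 past the size rule against 2.69% and 1.63%. The median was 0.043 with all libraries and 0.153 without replicate 1, against 0.006 and -0.005 over all genes. With the length correction and all libraries, 9 were higher and 1 lower, against 6.49% and 5.25%, with medians of 0.137 and 0.012. Leaving out each library in turn, the median over members ran from -0.027 to 0.153.

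The response to H2O2 was more positive in ATG7 KO than in WT cells for 2 of 32 members and more negative for 5, against 7.02% and 7.01% of all genes, with 1 and 3 past the size rule against 1.93% and 3.24%. Without replicate 1 these counts were 4 and 10, against 17.8% and 16.3%, and 1 and 3, against 1.81% and 3.29%. The length correction with all libraries gave 1 and 11, against 6.44% and 8.07% of all genes. The size rule then left 0 and 3, against 248 and 490 of the 16856 genes tested (4.38% together). The median was -0.085 over members and -0.033 over all genes, -0.174 and -0.011 without replicate 1, and -0.341 and -0.046 with the length correction. It was 0.039 over members without untreated ATG7 KO replicate 2, so its direction depends on single libraries. No test of the members against other genes was made.

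Among the 11 fibrillar genes, 9 were tested with H2O2 in WT cells, where 4 rose and 5 fell, and 0 higher and 4 lower were called in ATG7 KO cells, or 2 higher and 6 lower without replicate 1. Of all genes tested, 30.9% were higher and 30.1% lower with H2O2 in WT cells, and 13.6% and 12.4% in ATG7 KO cells, or 29.8% and 28.6% without replicate 1. COL1A1, the main chain of type I collagen (ENSG00000108821, chr17:50183289-50201632, minus strand, GRCh38), stood at 619, 645 and 613 FPKM in untreated WT and 282, 268 and 265 in H2O2-treated WT cells. It stood at 340.1, 492 and 479.9 in untreated ATG7 KO and 239, 248 and 242 in H2O2-treated ATG7 KO cells. Treated libraries lay below untreated ones in both lines, and ATG7 KO libraries below the WT libraries of the same treatment, with replicate 1 the lowest of the untreated ones. With H2O2 the log2 fold change was -1.21 ± 0.04 (SE; adjusted p = 1.1e-30) in WT cells and -0.85 (adjusted p = 0.00570) in ATG7 KO cells. Without replicate 1 the latter was -1.01 (adjusted p = 1.8e-118), and leaving out any 1 of the other 5 ATG7 KO libraries ended the call (adjusted p = 0.0181 to 0.0337), as did limma with 1 added to FPKM (-0.83, adjusted p = 0.0103). The length-corrected value in WT cells, -0.97, no longer met the size rule. Against WT, COL1A1 was lower in H2O2-treated ATG7 KO cells (-0.17 on the log2 scale; -0.33 with the length correction), but not called in a fit of all 12 libraries (-0.16, adjusted p = 0.283). In untreated cells the difference was -0.52 (adjusted p = 0.0693) with all libraries and -0.36 (adjusted p = 3.3e-14) without replicate 1.

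COL1A2, the partner chain of type I collagen, was far less abundant, at 5.10, 5.36 and 5.80 FPKM in untreated and 2.71, 2.50 and 2.60 in H2O2-treated WT cells. In ATG7 KO cells it was at 3.70, 4.41 and 4.48 without and 2.96, 3.22 and 3.13 with H2O2. Treated libraries lay below untreated ones in both lines, and among treated libraries those of ATG7 KO were higher. The response was -1.06 (adjusted p = 4.0e-19) in WT cells, or -0.80 with the length correction, and -0.44 (adjusted p = 0.0165) in ATG7 KO cells, or -0.53 (adjusted p = 3.8e-13) without replicate 1. The test of the difference between these responses gave 0.62 (adjusted p = 0.00379), or 0.54 without replicate 1 and 0.30 with the length correction as well. The call ended with the length correction and all libraries, at 0.25 (adjusted p = 0.0932), and when any 1 of 5 libraries was left out (adjusted p = 0.0104 to 0.0135), namely untreated WT replicate 3, H2O2-treated WT replicates 2 and 3 and H2O2-treated ATG7 KO replicates 2 and 3. Its higher level in ATG7 KO under H2O2, 0.25 (adjusted p = 0.00256), was no longer called with the length correction, at 0.05, nor without H2O2-treated WT replicate 2 or H2O2-treated ATG7 KO replicate 2 (adjusted p = 0.0128 to 0.0153), nor with upper quartile scaling, limma with 1 or 0.1 added, or all 12 libraries in 1 fit (adjusted p = 0.0109 to 0.512 over these and the length correction). The ratio of COL1A1 to COL1A2 in FPKM was 116 ± 8.91 (SD, n = 3) in untreated WT, 105 ± 2.66 in H2O2-treated WT, 104 ± 10.2 in untreated ATG7 KO and 78.3 ± 2.09 in H2O2-treated ATG7 KO cells. Type I molecules made of COL1A1 chains alone are known, but mRNA ratios do not give chain ratios of the protein.

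Type V collagen sits inside type I fibrils and sets their diameter. COL5A1 stood at 96.2, 104 and 99.7 FPKM in untreated and 46.4, 44.9 and 43.0 in H2O2-treated WT cells, and at 47.6, 92.9 and 87.7 and 33.2, 36.2 and 36.2 in untreated and H2O2-treated ATG7 KO cells. All treated libraries lay below the untreated ones of their line, and untreated ATG7 KO replicate 1 was close to the level of treated WT cells. COL5A1 fell with H2O2 in WT cells (-1.16 ± 0.04 on the log2 scale, or -0.90 with the length correction). In ATG7 KO cells the change was -1.12 (adjusted p = 0.0104) with all libraries and -1.37 (adjusted p = 6.7e-122) without replicate 1. Under H2O2 it was lower in ATG7 KO than in WT cells, at -0.35 (adjusted p = 9.3e-10), or -0.55 with the length correction, and not called in a fit of all 12 libraries, at -0.35 (adjusted p = 0.141).

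COL5A2, the other main chain of type V, had 76.3, 74.0 and 80.8 FPKM in untreated and 40.1, 41.02 and 40.1 in H2O2-treated WT cells. ATG7 KO cells had 67.9, 80.6 and 80.6 without and 41.6, 41.9 and 41.7 with H2O2. The untreated groups overlapped, and both treated groups lay below them. It fell with H2O2 by 0.93 on the log2 scale in WT and by 0.88 in ATG7 KO cells, or 0.96 without replicate 1. COL5A3, a rarer type V chain at 0.179 to 0.539 FPKM, was called in WT cells with H2O2 (0.86, adjusted p = 0.00205), lower in ATG7 KO than in WT cells under H2O2 (-1.06, adjusted p = 0.000541) and different in its responses (-1.49, adjusted p = 0.00802; -1.58 without replicate 1). The first of these calls ended without untreated WT replicate 1 or H2O2-treated WT replicate 2 (adjusted p = 0.0197 to 0.0212), and the last when any of 10 of the 12 libraries was left out (adjusted p = 0.0117 to 0.0245), which were all but untreated ATG7 KO replicate 1 and H2O2-treated ATG7 KO replicate 2. The last also ended with limma with 0.1 added, at -1.15 (adjusted p = 0.0104).

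Type XI collagen is a relative of type V best known from cartilage fibrils. COL11A1 had 10.4, 9.96 and 12.5 FPKM in untreated and 3.48, 3.66 and 3.38 in H2O2-treated WT cells, and 5.04, 6.46 and 7.19 and 1.30, 1.41 and 1.17 in untreated and H2O2-treated ATG7 KO cells. The 4 groups did not overlap, with untreated WT highest and H2O2-treated ATG7 KO lowest. With H2O2 it fell by 1.65 in WT and 2.27 in ATG7 KO cells on the log2 scale, or 2.41 without replicate 1, and under H2O2 it was lower in ATG7 KO than in WT cells (-1.44 ± 0.09). In untreated cells the difference between the lines was -0.81 (adjusted p = 0.0136) with all libraries and -0.68 (adjusted p = 3.2e-07) without replicate 1. COL11A2 moved the other way in WT cells, from 0.366, 0.468 and 0.485 FPKM untreated to 1.60, 1.83 and 1.501 with H2O2, while ATG7 KO cells had 0.315, 0.291 and 0.345 without and 0.407, 0.352 and 0.274 with H2O2. Only H2O2-treated WT libraries stood above 1 FPKM, and the 2 ATG7 KO groups overlapped. It rose with H2O2 in WT cells (1.89 ± 0.16, SE; adjusted p = 7.6e-15) and was lower in ATG7 KO than in WT cells under H2O2 (-2.26, adjusted p = 1.7e-13). Its responses differed between the lines by -1.78 (adjusted p = 0.000518), and by -1.78 without replicate 1.

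COL27A1, a fibrillar gene of cartilage, had 5.11, 5.89 and 5.04 FPKM in untreated and 11.5, 12.0 and 10.7 in H2O2-treated WT cells. It had 2.71, 5.20 and 4.89 FPKM in untreated and 7.87, 8.12 and 8.64 in H2O2-treated ATG7 KO cells. It was higher in the treated libraries of each line, and replicate 1 was the lowest of all 12. The rise in WT cells was 1.09 ± 0.06 (SE; adjusted p = 2.2e-20), and in ATG7 KO cells the value was 0.94 (adjusted p = 0.0174) with all libraries and 0.69 (adjusted p = 5.3e-35) without replicate 1. Under H2O2 it was lower in ATG7 KO than in WT cells (-0.48, adjusted p = 8.4e-11), a call that ended in a fit of all 12 libraries (-0.48, adjusted p = 0.0444). COL2A1, the fibril chain of cartilage and vitreous, had 4, 0 and 3 reads in untreated WT, 39, 27 and 26 in H2O2-treated WT, none in untreated ATG7 KO and 9, 16 and 22 in H2O2-treated ATG7 KO cells. Against a floor of 3 reads per library, its level in ATG7 KO cells was at least 5.20-fold higher with H2O2. In WT cells it was counted as higher with H2O2, but it passed the filter only through the treated libraries. No p-value or fold is given for it, because the untreated libraries hold so few reads. It was lower in ATG7 KO than in WT cells under H2O2 (-1.01, adjusted p = 0.00863), a call that ended without H2O2-treated WT replicate 1 or 2 or H2O2-treated ATG7 KO replicate 1 or 2 (adjusted p = 0.0149 to 0.0739). It also ended with DESeq2, no filter, a replicate block, limma with 1 or 0.1 added, and all 12 libraries in 1 fit (adjusted p = 0.0119 to 0.0879; -1.005 in the last). COL24A1, with 1 to 21 reads, fell with H2O2 in ATG7 KO cells (-2.23, adjusted p = 0.00289), a call that remained without replicate 1 (-2.32) and ended when any other library of that comparison was left out (adjusted p = 0.0105 to 0.0198), or with a replicate block or limma with 1 added (adjusted p = 0.0107 to 0.0263).

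**Figure D1:**
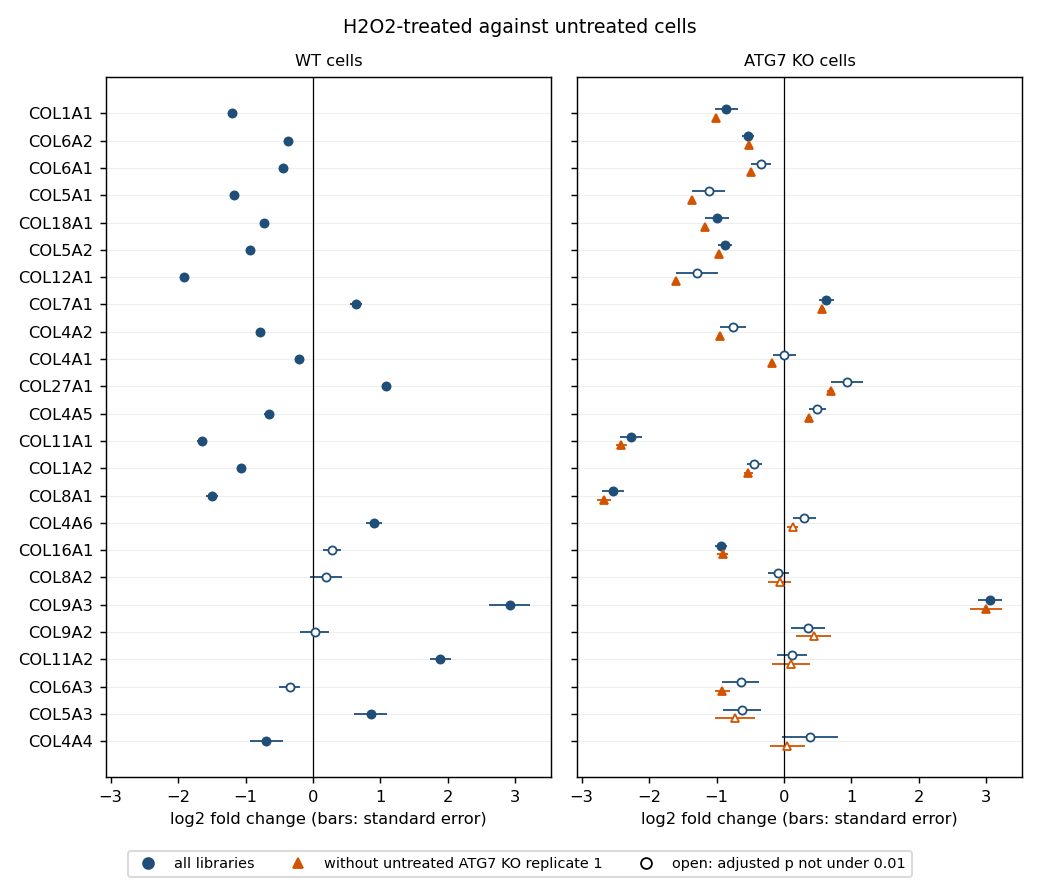
Points give log2 fold changes of H2O2-treated against untreated cells with bars of 1 standard error, in WT cells on the left and ATG7 KO cells on the right, for the named genes except COL2A1; triangles leave out untreated ATG7 KO replicate 1 and open symbols have an adjusted p of 0.01 or more. COL8A1 and COL11A1 fell in both lines, by 1.499 and 1.65 in WT and by 2.54 and 2.27 in ATG7 KO cells on the log2 scale, and COL9A3 rose in both, by 2.92 and 3.05. In WT cells COL9A3 passed the filter only through its treated libraries.

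Type IV collagen is the network of basement membranes, including the lens capsule, and its 6 genes lie head to head in 3 pairs. Of the 5 tested, H2O2 gave 1 higher and 4 lower in WT and 0 higher and 0 lower in ATG7 KO cells, or 1 higher and 2 lower without replicate 1, beside the 30.9% and 30.1%, 13.6% and 12.4%, and 29.8% and 28.6% of all genes. The promoters of COL4A1 and COL4A2, and of COL4A5 and COL4A6, are printed because each pair shares its promoter region while its members differed in level and in response. The sequences are RefSeq windows on GRCh38.p14 of 300 bases, from 250 before to 50 after the RefSeq start site, read 5′ to 3′ on the strand of the gene. They lie at chr13:110307108-110307407 on the minus strand, chr13:110307034-110307333 on the plus strand, chrX:108439588-108439887 on the plus strand and chrX:108439409-108439708 on the minus strand. Capitals mark CCAAT and GGGCGG on either strand (ATTGG and CCGCCC on the other).
COL4A1: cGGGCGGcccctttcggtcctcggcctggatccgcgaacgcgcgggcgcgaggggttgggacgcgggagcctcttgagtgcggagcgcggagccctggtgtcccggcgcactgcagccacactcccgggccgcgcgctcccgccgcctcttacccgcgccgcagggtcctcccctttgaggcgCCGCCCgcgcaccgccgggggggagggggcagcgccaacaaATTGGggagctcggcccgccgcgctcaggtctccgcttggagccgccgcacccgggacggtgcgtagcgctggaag
COL4A2: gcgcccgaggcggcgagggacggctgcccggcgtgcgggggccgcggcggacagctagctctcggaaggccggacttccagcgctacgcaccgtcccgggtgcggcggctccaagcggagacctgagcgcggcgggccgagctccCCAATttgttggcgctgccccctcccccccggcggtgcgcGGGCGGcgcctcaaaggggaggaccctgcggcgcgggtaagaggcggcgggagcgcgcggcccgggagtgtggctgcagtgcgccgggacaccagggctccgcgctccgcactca
COL4A5: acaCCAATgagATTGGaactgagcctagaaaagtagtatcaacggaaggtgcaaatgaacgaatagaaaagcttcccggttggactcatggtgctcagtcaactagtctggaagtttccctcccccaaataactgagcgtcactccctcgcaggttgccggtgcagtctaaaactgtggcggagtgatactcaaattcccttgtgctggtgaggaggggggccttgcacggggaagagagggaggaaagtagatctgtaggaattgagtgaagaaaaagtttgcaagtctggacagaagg
COL4A6: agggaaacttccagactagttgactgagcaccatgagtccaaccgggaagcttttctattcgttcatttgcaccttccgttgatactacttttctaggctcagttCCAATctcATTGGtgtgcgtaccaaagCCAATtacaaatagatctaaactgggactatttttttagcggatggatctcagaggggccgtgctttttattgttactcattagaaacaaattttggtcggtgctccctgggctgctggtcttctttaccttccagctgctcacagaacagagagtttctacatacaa

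The RefSeq start sites of COL4A1 and COL4A2 are 127 bases apart and their windows overlap by 226 bases. Those of COL4A5 and COL4A6 are 380 bases apart, with an overlap of 121 bases. GC made up 76.7% and 77.7% of the COL4A1 and COL4A2 windows and 49.3% and 43.7% of those of COL4A5 and COL4A6, against a median of 58.7% over all 35116 windows. CCAAT matched once each in the COL4A1 and COL4A2 windows, 2 times in COL4A5 and 3 times in COL4A6, and was present in 34.6% of all windows. GGGCGG matched 2 times in COL4A1, 1 time in COL4A2 and in neither of the other windows, and was present in 45.0% of all windows. TATAAA, present in 11.5%, matched in none of the 4. Of the 44 members, 32 had a window, and CCAAT was found in 12, GGGCGG in 21 and TATAAA in 7 of these. These matches describe the letters of the windows and show no binding.

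COL4A1 (ENSG00000187498, chr13:110148963-110307233, minus strand) stood at 19.9, 19.2 and 20.3 FPKM in untreated and 17.2, 17.8 and 16.4 in H2O2-treated WT cells, and at 12.8, 19.6 and 19.01 and 17.3, 17.0 and 17.4 in untreated and H2O2-treated ATG7 KO cells. Apart from untreated ATG7 KO replicate 1, all libraries lay within 16.4 and 20.3 FPKM, and treated libraries lay below untreated ones in each line, while the lines overlapped at each treatment. It was lower with H2O2 in WT cells, at -0.21 (adjusted p = 3.3e-05), a direction that the length correction turned to 0.11, and a fit of all 12 libraries did not call it (-0.21, adjusted p = 0.173). With H2O2 in ATG7 KO cells COL4A1 had 0.00 (adjusted p = 0.991) with all libraries, and -0.17 (adjusted p = 3.3e-06) without replicate 1, which was called. Under H2O2 no difference between the lines was called, while the length-corrected value of -0.25 was called. COL4A2 (ENSG00000134871, chr13:110305812-110513209, plus strand), its partner in the common type IV network, stood at 30.9, 34.2 and 33.7 FPKM in untreated and 19.8, 18.99 and 18.6 in H2O2-treated WT cells. It stood at 19.1, 30.8 and 29.8 FPKM in untreated and 15.1, 16.2 and 16.02 in H2O2-treated ATG7 KO cells, with treated libraries below untreated ones in both lines. The log2 fold change with H2O2 was -0.79 (adjusted p = 3.6e-21) in WT cells, or -0.42 with the length correction, and -0.76 (adjusted p = 0.0166) in ATG7 KO cells, or -0.95 (adjusted p = 8.6e-93) without replicate 1. Under H2O2 COL4A2 was lower in ATG7 KO than in WT cells, at -0.29 (adjusted p = 5.3e-08) and at -0.58 with the length correction, but it was not called in a fit of all 12 libraries, at -0.28 (adjusted p = 0.127). The ratio of COL4A1 to COL4A2 was 0.602 ± 0.0413 (SD, n = 3) in untreated WT and 0.648 ± 0.0195 in untreated ATG7 KO cells, and 0.896 ± 0.0368 and 1.09 ± 0.0513 in the treated groups, where it was higher in each library than in any untreated one. The gene positions given here are those of the count annotation, whose starts differ from the RefSeq start sites. Its models of these 2 genes overlap by 1422 bases, and without strand, reads there cannot be assigned to one of the genes.

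COL4A5 (ENSG00000188153, chrX:108439844-108697545, plus strand) and COL4A6 (ENSG00000197565, chrX:108155607-108439497, minus strand) encode chains that can join in a further type IV network. COL4A5 stood at 5.45, 5.81 and 5.04 FPKM in untreated and 3.40, 3.16 and 3.83 in H2O2-treated WT cells. ATG7 KO cells had 6.42, 8.08 and 8.49 without and 11.4, 10.3 and 10.8 with H2O2. Treated libraries were below untreated ones in WT and above them in ATG7 KO cells, and ATG7 KO libraries were above WT libraries of the same treatment. With H2O2 it fell in WT cells (-0.65, adjusted p = 1.2e-11; -0.37 with the length correction), and in ATG7 KO cells the change was 0.49 (adjusted p = 0.0193) with all libraries and 0.38 (adjusted p = 1.1e-14) without replicate 1. The responses differed by 1.15 ± 0.16 (SE; adjusted p = 0.000373), by 1.04 without replicate 1, and by 0.79 with the length correction as well, which is short of the size rule. Under H2O2 the level in ATG7 KO was above WT by 1.64 ± 0.06 (SE; adjusted p = 2.3e-20).

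COL4A6 was the type IV gene that differed most between the untreated lines, at 0.742, 0.715 and 0.825 FPKM in untreated WT and 2.09, 3.07 and 3.19 in untreated ATG7 KO cells. With H2O2 it was at 1.56, 1.35 and 1.38 in WT and 3.54, 3.60 and 3.22 in ATG7 KO cells. All ATG7 KO libraries were above all WT libraries, by 1.87 (adjusted p = 0.000995) in untreated and 1.26 (adjusted p = 5.6e-14) in H2O2-treated cells on the log2 scale. The call in untreated cells ended without untreated WT replicate 1 or 2 (adjusted p = 0.0114 to 0.0121) and held without ATG7 KO replicate 1, at 2.05. COL4A6 rose with H2O2 in WT cells by 0.91 (adjusted p = 9.9e-09), unlike its neighbour COL4A5, and 1.13 with the length correction passed the size rule. The ratio of COL4A5 to COL4A6 was 7.19 ± 1.02 in untreated WT, 2.43 ± 0.309 in H2O2-treated WT, 2.79 ± 0.246 in untreated ATG7 KO and 3.15 ± 0.266 in H2O2-treated ATG7 KO cells. COL4A4, at 0.0963 to 0.363 FPKM, was lower in WT cells with H2O2 (-0.69, adjusted p = 0.00974), a call that ended when any WT library except H2O2-treated replicate 2 was left out (adjusted p = 0.0113 to 0.0774) and with the length correction (-0.45). It also ended with RLE scaling, DESeq2, at least 10 reads in every library, limma with 1 or 0.1 added, and all 12 libraries in 1 fit (adjusted p = 0.0108 to 0.107 over these and the length correction).

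**Figure D2:**
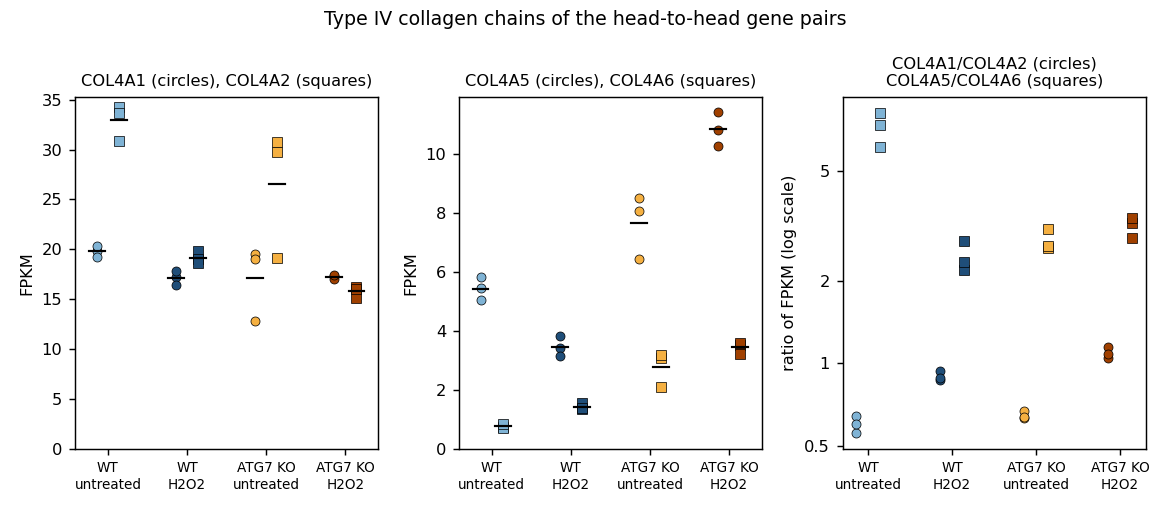
The left and middle panels give the FPKM of COL4A1 with COL4A2 and of COL4A5 with COL4A6 in each library, with a line at the mean of 3 replicates, and the right panel the ratio within each pair on a log axis; the lowest points of the untreated ATG7 KO group in the first 2 panels are replicate 1. The COL4A5 to COL4A6 ratio averages 7.19 in untreated WT and 2.43 to 3.15 in the other groups, and that of COL4A1 to COL4A2 0.602 and 0.648 in untreated and 0.896 and 1.09 in treated cells.

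Type VI collagen forms beaded filaments close to basement membranes, and it needs COL6A1, COL6A2 and a further chain such as COL6A3. Of these 3, H2O2 gave 0 higher and 2 lower in WT and 0 higher and 1 lower in ATG7 KO cells, or 0 higher and 3 lower without replicate 1, against 30.9% and 30.1%, 13.6% and 12.4%, and 29.8% and 28.6% of all genes. COL6A1 had 188, 200.2 and 198 FPKM in untreated and 145, 143 and 143 in H2O2-treated WT cells, and 177, 249 and 236 and 167, 178 and 177 in untreated and H2O2-treated ATG7 KO cells. Apart from replicate 1, which lay among the treated ATG7 KO libraries, ATG7 KO was above WT at each treatment and treated below untreated in each line. The response in WT cells was -0.45 (adjusted p = 5.8e-14), and in ATG7 KO cells -0.35 (adjusted p = 0.101) with all libraries and -0.49 (adjusted p = 2.6e-44) without replicate 1. ATG7 KO exceeded WT cells by 0.27 under H2O2, which was not called in a fit of all 12 libraries (0.27, adjusted p = 0.0571), and without treatment by 0.18 (adjusted p = 0.447) with all libraries and 0.32 (adjusted p = 4.1e-12) without replicate 1. COL6A2 had 220.4, 234 and 225 FPKM in untreated and 178, 176 and 174 in H2O2-treated WT cells. It had 297, 291 and 281 FPKM in untreated and 197, 201 and 204 in H2O2-treated ATG7 KO cells, where replicate 1 was the highest library. Its level was lower with H2O2 in WT (-0.37) and in ATG7 KO cells (-0.53, adjusted p = 0.00367), and the latter, -0.52 without replicate 1, lost its call when any other library was left out (adjusted p = 0.0132 to 0.0332) or with a replicate block (adjusted p = 0.0176). COL6A2 was higher in ATG7 KO than in WT cells under H2O2 by 0.18 (adjusted p = 5.1e-06), but not called in a fit of all 12 libraries (0.19, adjusted p = 0.0354).

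COL6A3 was scarce beside its partners, at 0.304, 0.379 and 0.333 FPKM in untreated and 0.297, 0.285 and 0.222 in H2O2-treated WT cells. ATG7 KO cells were at 0.503, 0.986 and 1.05 without and 0.509, 0.577 and 0.549 with H2O2. Every ATG7 KO library was above every WT library, and replicate 1 was lower than the other untreated ATG7 KO libraries. Under H2O2 it was higher in ATG7 KO than in WT cells by 1.02 (adjusted p = 1.1e-07), and in untreated cells the value was 1.32 (adjusted p = 0.0193) with all libraries and 1.59 (adjusted p = 2.3e-28) without replicate 1. The ratio of COL6A3 to COL6A1 was 0.00173 in untreated WT, 0.00186 in H2O2-treated WT, 0.00375 in untreated ATG7 KO and 0.00313 in H2O2-treated ATG7 KO cells. That of COL6A1 to COL6A2 was 0.862, 0.817, 0.764 and 0.867 in the same order, with 0.595 in replicate 1 of untreated ATG7 KO cells.

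COL7A1, the anchoring fibril chain that ties basement membranes to the matrix beneath (ENSG00000114270, chr3:48564073-48595267, minus strand), went against most of the abundant collagens. It stood at 11.3, 13.0 and 10.2 FPKM in untreated and 16.9, 18.2 and 18.9 in H2O2-treated WT cells, and at 30.0, 35.6 and 32.2 and 50.3, 47.4 and 53.8 in untreated and H2O2-treated ATG7 KO cells. The groups did not overlap, and rose in that order. ATG7 KO exceeded WT cells by 1.504 ± 0.13 (SE; adjusted p = 0.000616) without, or 1.57 without replicate 1, and 1.48 ± 0.05 (SE; adjusted p = 6.6e-19) with H2O2 on the log2 scale. H2O2 raised it by 0.64 (adjusted p = 8.0e-05) in WT and 0.63 (adjusted p = 0.00392) in ATG7 KO cells. The call in WT cells ended without H2O2-treated WT replicate 3 (adjusted p = 0.0126). In ATG7 KO cells it ended when untreated replicate 3 or any treated replicate was left out (adjusted p = 0.0168 to 0.0260) or with a replicate block (adjusted p = 0.0137) and was 0.56 (adjusted p = 4.1e-09) without untreated replicate 1.

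**Figure D3:**
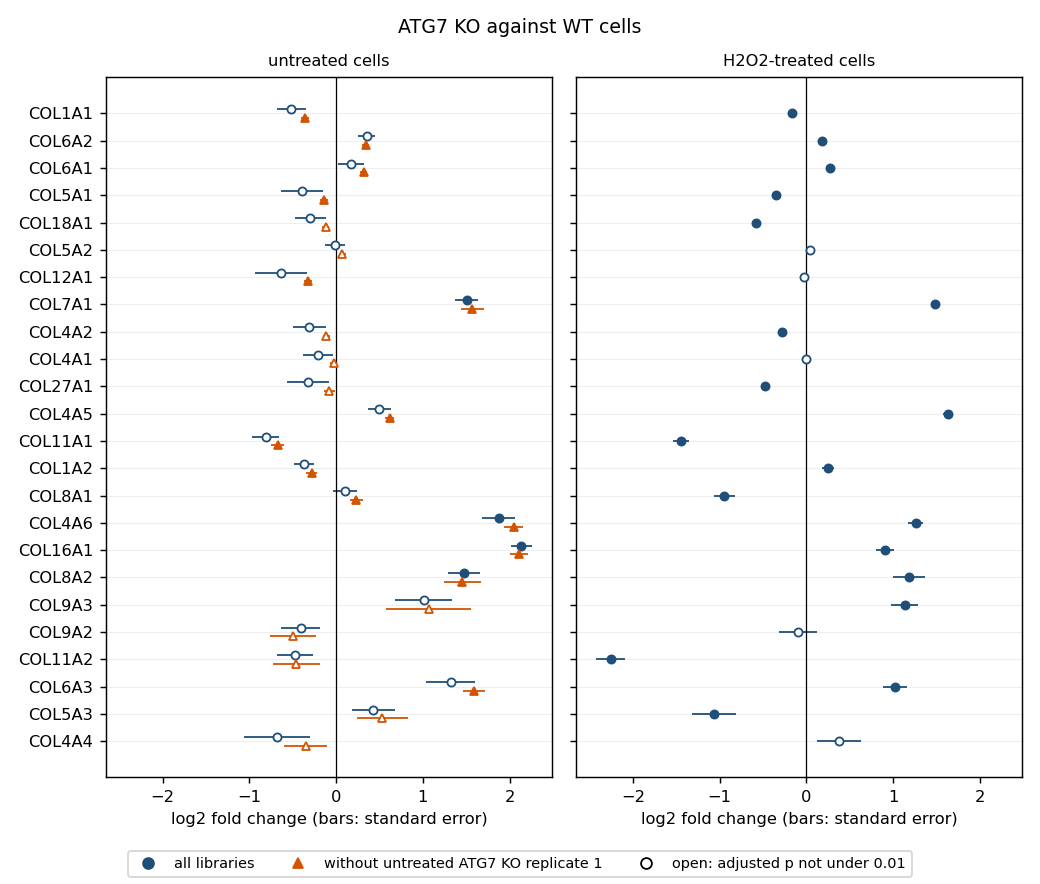
Points give log2 fold changes of ATG7 KO against WT cells with bars of 1 standard error, untreated on the left and H2O2-treated on the right, for the named genes except COL2A1; triangles leave out untreated ATG7 KO replicate 1 and open symbols have an adjusted p of 0.01 or more. COL7A1 was higher in ATG7 KO cells by 1.504 without and 1.48 with H2O2, and COL16A1 by 2.13 and 0.91.

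Fibril-associated collagens coat the surface of fibrils, and H2O2 gave 2 higher and 1 lower of 5 tested in WT and 1 higher and 1 lower of 4 in ATG7 KO cells, or 1 higher and 2 lower without replicate 1. Over all genes these shares were 30.9% and 30.1%, 13.6% and 12.4%, and 29.8% and 28.6%. COL12A1, which lies on type I fibrils, had 61.3, 60.7 and 63.8 FPKM in untreated and 16.8, 16.4 and 16.3 in H2O2-treated WT cells, and 21.2, 50.2 and 48.1 and 15.9, 17.0 and 16.1 in untreated and H2O2-treated ATG7 KO cells. The treated groups overlapped and lay below all untreated libraries, among which replicate 1 of ATG7 KO was lowest. With H2O2 it fell in WT cells by 1.91 on the log2 scale, and in ATG7 KO cells the value was -1.30 (adjusted p = 0.0140) with all libraries and -1.60 (adjusted p = 2.4e-150) without replicate 1. Under H2O2 no difference between the lines was called, while the length-corrected value of -0.24 was called. In untreated cells the difference between the lines was -0.63 (adjusted p = 0.194) with all libraries and -0.33 (adjusted p = 3.7e-12) without replicate 1.

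COL16A1, a further gene of this class, had 0.929, 0.997 and 0.790 FPKM in untreated and 1.07, 1.11 and 1.14 in H2O2-treated WT cells. It had 4.17, 3.86 and 3.91 FPKM in untreated and 1.93, 2.13 and 2.20 in H2O2-treated ATG7 KO cells. ATG7 KO libraries were above all WT libraries, and highest without treatment, replicate 1 included. The excess over WT was 2.13 ± 0.12 (SE; adjusted p = 0.000159) without H2O2, or 2.11 without replicate 1, and 0.91 (adjusted p = 2.9e-09) with H2O2. COL16A1 fell with H2O2 in ATG7 KO cells (-0.94, adjusted p = 0.000382; -0.91 without replicate 1), and this response differed from that of WT cells by -1.22 (adjusted p = 0.000136), or -1.18 without replicate 1. In WT cells the value was 0.28 (adjusted p = 0.0443), and 0.50 with the length correction was called. COL9A3, a type IX chain of cartilage, was at 0.0711, 0.101 and 0.128 FPKM in untreated and 0.706, 0.765 and 0.841 in H2O2-treated WT cells. It was at 0.188, 0.209 and 0.212 FPKM in untreated and 1.87, 1.57 and 1.67 in H2O2-treated ATG7 KO cells, with no overlap between the groups. It rose with H2O2 in WT (2.92 ± 0.31, SE; adjusted p = 1.0e-11) and ATG7 KO cells (3.05, adjusted p = 3.8e-05; 2.996 without replicate 1) and was higher in ATG7 KO under H2O2 (1.13). In WT cells it had 6, 9 and 11 reads untreated and 58, 57 and 70 with H2O2. There it passed the filter only through the treated libraries, and that p-value depends on the filter. Its partner COL9A2, at 0.426 to 0.863 FPKM, passed in no comparison, and COL9A1 had at most 2 reads in a library. COL20A1 had no read in any untreated library, 44, 41 and 28 reads in H2O2-treated WT and 7, 9 and 17 in H2O2-treated ATG7 KO cells. Against a floor of 3 reads per library this was at least 13.1-fold higher with H2O2 in WT and at least 3.64-fold higher in ATG7 KO cells. The rise in ATG7 KO cells was not tested, with or without replicate 1. Under H2O2 COL20A1 was lower in ATG7 KO than in WT cells (-1.82, adjusted p = 3.0e-05).

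The short-chain collagens COL8A1 and COL8A2 form hexagonal networks in tissues such as the corneal endothelium's basement membrane. COL8A1 had 3.47, 3.48 and 3.70 FPKM in untreated and 1.28, 1.31 and 1.19 in H2O2-treated WT cells, and 3.09, 4.01 and 4.29 and 0.701, 0.621 and 0.649 in untreated and H2O2-treated ATG7 KO cells. Untreated groups overlapped, and treated ATG7 KO libraries lay below treated WT ones. It fell with H2O2 by 1.499 (adjusted p = 4.8e-20) in WT and by 2.54 (adjusted p = 5.9e-05) in ATG7 KO cells on the log2 scale, and the responses differed by -1.04 (adjusted p = 0.00118). Without replicate 1 the fall in ATG7 KO cells was 2.67 and the difference -1.16, and the call of the difference ended with limma with 1 added, at -0.52 (adjusted p = 0.0113). Under H2O2 it was lower in ATG7 KO than in WT cells, at -0.94 (adjusted p = 6.7e-08), and -1.10 with the length correction met the size rule. COL8A2 had 0.541, 0.535 and 0.386 FPKM in untreated and 0.581, 0.501 and 0.598 in H2O2-treated WT cells. It had 1.42, 1.39 and 1.27 FPKM in untreated and 1.201, 1.499 and 1.16 in H2O2-treated ATG7 KO cells, all above the WT libraries. The difference was 1.19 (adjusted p = 1.3e-06) with H2O2 and 1.48 (adjusted p = 0.00244) without, where the call ended when any untreated WT library or untreated ATG7 KO replicate 2 was left out (adjusted p = 0.0116 to 0.0161) and held without replicate 1 (1.45). COL10A1, with 2 to 27 reads, rose with H2O2 in WT cells (1.61, adjusted p = 0.00161), a call that ended without untreated WT replicate 1 or 3 or H2O2-treated WT replicate 2 (adjusted p = 0.0147 to 0.0432), and with limma with 1 added or all 12 libraries in 1 fit (adjusted p = 0.0129 to 0.0150).

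COL18A1, a basement membrane collagen whose end fragment is endostatin, had 84.4, 94.1 and 88.5 FPKM in untreated and 56.1, 53.8 and 52.8 in H2O2-treated WT cells. It had 54.0, 83.1 and 79.9 FPKM in untreated and 35.3, 37.2 and 36.6 in H2O2-treated ATG7 KO cells. Treated libraries were lower in each line, and the treated ATG7 KO group was lowest. H2O2 lowered it by 0.72 on the log2 scale in WT cells, and the value in ATG7 KO cells was -0.999 (adjusted p = 0.00389) with all libraries and -1.18 (adjusted p = 7.4e-118) without replicate 1. That call ended when any other library of the comparison was left out (adjusted p = 0.0121 to 0.0249). Under H2O2 it was lower in ATG7 KO than in WT cells (-0.58, adjusted p = 2.1e-15). Its relative COL15A1 had 1, 5 and 4 reads in untreated WT, 24, 17 and 12 in H2O2-treated WT, 46, 28 and 26 in untreated ATG7 KO and 16, 9 and 20 in H2O2-treated ATG7 KO cells. In untreated cells it was higher in ATG7 KO (3.31, adjusted p = 0.00591; 2.96 without replicate 1), a call that ended when any of the other 5 libraries was left out (adjusted p = 0.0129 to 0.0340), or with a replicate block or limma with 1 added (adjusted p = 0.0203 to 0.0205). It rose with H2O2 in WT cells (2.47, adjusted p = 5.0e-05), and the responses differed by -3.59 (adjusted p = 0.00237), or -3.22 without replicate 1. These folds of COL15A1 all rest on the few reads of untreated WT cells and are imprecise, with standard errors of 0.52 to 0.68.

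Of the transmembrane collagens, COL17A1, a part of hemidesmosomes, ran from 0.114 to 0.857 FPKM. It rose with H2O2 in WT cells (1.15, adjusted p = 0.000444) and was higher in ATG7 KO than in WT cells under H2O2 (0.92, adjusted p = 0.000157). COL13A1, with 5 to 27 reads, was lower in ATG7 KO under H2O2 (-1.55, adjusted p = 0.00193), a call that ended without H2O2-treated WT replicate 1 or 2 or H2O2-treated ATG7 KO replicate 2 or 3 (adjusted p = 0.0110 to 0.0176), or with limma with 1 or 0.1 added (adjusted p = 0.0124 to 0.0222). COL25A1, with 1 to 15 reads, rose with H2O2 in ATG7 KO cells (2.05, adjusted p = 0.00508) and was higher there than in treated WT cells (1.58, adjusted p = 0.00636). The rise was still called without replicate 1 (1.83, adjusted p = 0.00540) and ended when any other library of that comparison was left out (adjusted p = 0.0177 to 0.0268), or with no filter, a replicate block, or limma with 1 or 0.1 added (adjusted p = 0.0102 to 0.0450). The difference between the lines was called without H2O2-treated WT replicate 2 and ended when any of the other 5 libraries was left out (adjusted p = 0.0135 to 0.0566). It also ended with DESeq2, no filter, the length correction, limma with 1 or 0.1 added, and all 12 libraries in 1 fit (adjusted p = 0.0127 to 0.0801; 1.58 in the last).

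Some collagens were called only without replicate 1 or only with the length correction, and those not yet given are listed here with the value from all libraries in parentheses. Without replicate 1, they were, between the untreated lines, COL6A2 at 0.34 (0.35), COL5A1 at -0.14 (-0.39), COL4A5 at 0.62 (0.50), COL1A2 at -0.28 (-0.37), COL8A1 at 0.23 (0.10), COL17A1 at 1.75 (1.57) and COL24A1 at 2.27 (2.18), and with H2O2 in ATG7 KO cells COL6A3 at -0.91 (-0.64). COL2A1 was also counted as higher there without replicate 1, and it was not tested with all libraries. It passed the filter only through its treated libraries, since untreated ATG7 KO cells had no read. No p-value or fold is given, and nothing is drawn from that call. For the difference of the H2O2 responses they were COL1A1 at 0.21 (0.35), COL5A1 at -0.19 (0.05), COL18A1 at -0.44 (-0.28), COL12A1 at 0.32 (0.62), COL27A1 at -0.39 (-0.15), COL11A1 at -0.75 (-0.62) and COL4A6 at -0.77 (-0.60). With the length correction and all libraries, they were COL4A5 at 0.68 (0.50), COL11A1 at -0.69 (-0.81), COL6A3 at 1.54 (1.32), COL17A1 at 1.65 (1.57) and COL24A1 at 2.32 (2.18) between the untreated lines. With H2O2 in ATG7 KO cells the correction added COL5A1 at -1.20 (-1.12), COL4A2 at -0.91 (-0.76), COL12A1 at -1.37 (-1.30), COL27A1 at 0.84 (0.94), COL4A5 at 0.38 (0.49), COL1A2 at -0.55 (-0.44) and COL6A3 at -0.77 (-0.64). For the difference of the responses it added COL18A1 at -0.52 (-0.28), COL4A2 at -0.51 (0.03), COL27A1 at -0.57 (-0.15), COL11A1 at -0.90 (-0.62), COL4A6 at -0.88 (-0.60) and COL6A3 at -0.82 (-0.30). The correction without replicate 1 gave, for that difference, COL6A2 at -0.17 (-0.16), COL5A1 at -0.44 (0.05), COL18A1 at -0.62 (-0.28), COL4A2 at -0.50 (0.03), COL4A1 at -0.25 (0.22), COL27A1 at -0.67 (-0.15), COL11A1 at -0.94 (-0.62), COL4A6 at -0.96 (-0.60) and COL6A3 at -0.91 (-0.30), while COL1A1 and COL12A1 were not called. COL5A1, COL4A1 and COL4A2 changed direction among these.

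Genes that make and handle collagen chains were read as lists beside the members. Of all genes tested, 30.9% rose and 30.1% fell with H2O2 in WT cells and 13.6% and 12.4% in ATG7 KO cells, or 29.8% and 28.6% without replicate 1. Between the lines 27.7% were higher and 27.9% lower in ATG7 KO under H2O2, and 4.42% and 3.28% in untreated cells, or 18.2% and 17.9% without replicate 1. Of 15 genes for hydroxylation and glycosylation of collagen chains, 14 were tested, with 4 higher and 7 lower with H2O2 in WT cells and 2 higher and 3 lower in ATG7 KO against WT cells under H2O2. With H2O2 in ATG7 KO cells 2 higher and 5 lower were called, or 4 higher and 8 lower without replicate 1, and between untreated lines 1 higher and 3 lower, or 5 higher and 4 lower. P3H2, a prolyl 3-hydroxylase active on type IV collagen, rose with H2O2 in WT (0.89, adjusted p = 2.3e-21) and ATG7 KO cells (1.57, adjusted p = 3.1e-05), with a difference of 0.67 (adjusted p = 0.000330). It was lower in ATG7 KO than in WT cells both untreated (-0.97, adjusted p = 0.000600) and with H2O2 (-0.31, adjusted p = 1.0e-07). P4HA2, a chain of prolyl 4-hydroxylase, was higher in untreated ATG7 KO than WT cells (1.02, adjusted p = 0.000786). This call ended when any untreated WT library was left out (adjusted p = 0.0110 to 0.0125) and was 0.95 without replicate 1. Without replicate 1, P3H2 had 1.55 with H2O2 in ATG7 KO cells, -0.96 between untreated lines and 0.67 for the difference of the responses.

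All 17 genes for folding and export were tested, with 2 higher and 8 lower with H2O2 in WT cells and 7 higher and 3 lower in ATG7 KO against WT cells under H2O2. With H2O2 in ATG7 KO cells there were 0 higher and 5 lower, or 5 higher and 8 lower without replicate 1, and between untreated lines 3 higher and 0 lower, or 5 higher and 3 lower. Over all genes the shares higher and lower were 30.9% and 30.1% with H2O2 in WT cells, 13.6% and 12.4% in ATG7 KO cells (29.8% and 28.6% without replicate 1), 27.7% and 27.9% between the treated lines, and 4.42% and 3.28% between the untreated lines (18.2% and 17.9%). HSPA5, the main chaperone of the endoplasmic reticulum, had 195, 177 and 190.0 FPKM in untreated and 477, 451 and 409 in H2O2-treated WT cells, and 226, 171 and 166 and 104, 106 and 111 in untreated and H2O2-treated ATG7 KO cells. It rose in WT cells (1.25, adjusted p = 2.0e-22) and fell in ATG7 KO cells (-0.81, adjusted p = 0.00325), with a difference of -2.06 (adjusted p = 1.0e-05). Without replicate 1 the fall was 0.67 and the difference -1.90. Treated WT libraries were highest and treated ATG7 KO libraries lowest. CREB3L1, a transcription factor that activates type I collagen genes in bone, fell with H2O2 in WT (-1.01, adjusted p = 2.9e-21) and ATG7 KO cells (-1.74, adjusted p = 0.000279; -1.90 without replicate 1). SEC23A and MIA2, which act in the export of large cargo from the endoplasmic reticulum, were higher in untreated ATG7 KO than WT cells, by 1.003 and 1.02 on the log2 scale, or 1.01 and 1.02 without replicate 1, and both calls ended without untreated WT replicate 2 or 3 (adjusted p = 0.0103 to 0.0107 for SEC23A and 0.0125 to 0.0135 for MIA2).

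All genes tested gave shares higher and lower of 30.9% and 30.1% with H2O2 in WT cells, 13.6% and 12.4% in ATG7 KO cells (29.8% and 28.6% without replicate 1), 27.7% and 27.9% between the treated lines, and 4.42% and 3.28% between the untreated lines (18.2% and 17.9%). Among 8 genes for removal of propeptides, H2O2 gave 2 higher and 3 lower of 7 tested in WT cells and 0 higher and 2 lower of 6 in ATG7 KO cells, or 0 higher and 3 lower without replicate 1. Against WT, 1 higher and 3 lower were called in ATG7 KO under H2O2 and 0 higher and 1 lower without it, or 3 higher and 2 lower without replicate 1. The procollagen proteinase ADAMTS2 fell with H2O2 in WT (-1.04, adjusted p = 1.2e-19) and ATG7 KO cells (-1.29, adjusted p = 0.000511; -1.42 without replicate 1). Among 7 cross-linking genes, H2O2 gave 0 higher and 5 lower of 6 tested in WT cells and 0 higher and 4 lower of 7 in ATG7 KO cells, or 0 higher and 6 lower without replicate 1. Against WT, 2 higher and 3 lower were called in ATG7 KO under H2O2 and 2 higher and 1 lower without it, or 3 higher and 2 lower without replicate 1. LOX, the lysyl oxidase that cross-links fibrils, was lower in ATG7 KO than in WT cells both untreated (-1.21, adjusted p = 0.000437) and with H2O2 (-1.92, adjusted p = 2.4e-25), and TGM2, a transglutaminase, was higher by 1.92 and 1.72. Without replicate 1 the untreated values were -1.15 and 2.01.

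The shares of all genes called higher and lower were 30.9% and 30.1% with H2O2 in WT cells, 13.6% and 12.4% in ATG7 KO cells (29.8% and 28.6% without replicate 1), 27.7% and 27.9% between the treated lines, and 4.42% and 3.28% between the untreated lines (18.2% and 17.9%). Of 12 partners of fibrils and basement membranes, H2O2 gave 0 higher and 8 lower of 9 tested in WT cells and 0 higher and 2 lower of 10 in ATG7 KO cells, or 0 higher and 8 lower without replicate 1. Against WT, 6 higher and 4 lower were called in ATG7 KO under H2O2 and 2 higher and 2 lower without it, or 3 higher and 5 lower without replicate 1. Fibronectin (FN1), fibrillin (FBN1) and perlecan (HSPG2) fell with H2O2 in WT cells, by 1.19, 1.28 and 1.75 on the log2 scale. They were not called in ATG7 KO cells with all libraries, at -0.09 (adjusted p = 0.818), -0.52 (adjusted p = 0.196) and -0.91 (adjusted p = 0.221), and without replicate 1 they were called, at -0.39, -0.82 and -1.36. The small proteoglycan LUM was higher in untreated ATG7 KO than WT cells (5.80, adjusted p = 6.7e-05) and BGN lower (-2.21, adjusted p = 0.000260), with 5.64 and -2.30 without replicate 1. Of 10 collagen receptors, H2O2 gave 3 higher and 5 lower of 8 tested in WT cells and 1 higher and 2 lower in ATG7 KO cells, or 2 higher and 5 lower without replicate 1. Against WT, 5 higher and 2 lower were called in ATG7 KO under H2O2 and 1 higher and 0 lower of 7 without it, or 5 higher and 1 lower of 8 without replicate 1. ITGA2, the α2 chain of a collagen-binding integrin, rose with H2O2 in WT (2.68, adjusted p = 1.7e-37) and ATG7 KO cells (2.46, adjusted p = 0.000524; 2.20 without replicate 1). Most receptors went the other way. MRC2 had 36.0, 37.8 and 37.3 FPKM in untreated and 19.3, 18.5 and 18.5 in H2O2-treated WT cells. In ATG7 KO cells without replicate 1, H2O2 gave -1.21 for MRC2, -1.10 for ITGA11, -0.85 for ITGA1, -0.26 for ITGB1 and -0.25 for DDR2. DDR1 had 0.41 there.

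Marker lists are set beside all genes, of which the shares higher and lower were 30.9% and 30.1% with H2O2 in WT cells, 13.6% and 12.4% in ATG7 KO cells (29.8% and 28.6% without replicate 1), 27.7% and 27.9% between the treated lines, and 4.42% and 3.28% between the untreated lines (18.2% and 17.9%). With H2O2 in WT cells, 3 higher and 3 lower of 7 lens markers and 2 higher and 4 lower of 8 mesenchymal markers were called. In ATG7 KO cells these were 2 higher and 1 lower of 7 and 1 higher and 5 lower of 9, or 2 higher and 3 lower and 1 higher and 6 lower without replicate 1. Under H2O2, 2 higher and 2 lower of 7 lens markers and 2 higher and 4 lower of 9 mesenchymal markers were called in ATG7 KO against WT cells. In untreated cells 0 higher and 0 lower of 6 lens markers and 3 higher and 1 lower of 9 mesenchymal markers were called, or 1 higher and 2 lower of 7 and 4 higher and 3 lower of 9 without replicate 1. TAGLN, an actin-binding protein of smooth muscle and myofibroblasts, was lower in ATG7 KO than in WT cells under H2O2 (-1.62, adjusted p = 5.6e-22), as were VIM (-0.64), THY1 (-0.56) and ACTA2 (-0.53), while LUM (4.91) and FAP (0.89) were higher. In untreated cells LUM, FAP and S100A4 were higher in ATG7 KO, by 5.80, 0.92 and 2.10, or 5.64, 0.94 and 1.90 without replicate 1, and TAGLN was lower, at -0.60 and -0.62. These untreated calls of FAP, S100A4 and TAGLN ended with a replicate block and when some single libraries other than replicate 1 were left out, and the ACTA2 call under H2O2 ended in a fit of all 12 libraries. For TAGLN the responses to H2O2 differed by -1.02 (adjusted p = 0.000102), or -0.98 without replicate 1. Of the 2 other epithelial markers tested, 1 was lower with H2O2 in each line, 2 were lower in ATG7 KO cells without replicate 1, and under H2O2 both were lower in ATG7 KO than in WT cells. In untreated cells 0 of these 2 were called. With H2O2, 0 of 1 endothelial marker tested was called in WT cells and 1 of 1 was lower in ATG7 KO cells, or 2 of 2 without replicate 1. Between the lines 1 of 2 endothelial markers was higher in untreated ATG7 KO cells, with and without replicate 1, and 0 of 1 was called under H2O2. The 1 leukocyte marker tested was lower with H2O2 in WT cells, and between untreated lines it was not called, or lower without replicate 1.

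The difference between the H2O2 responses was tested for these lists as well, with 7.02% of all genes higher and 7.01% lower, or 17.8% and 16.3% without replicate 1. Counts are given as higher and lower, with those without replicate 1 in parentheses. They were 1 and 1 (2 and 3) for hydroxylation and glycosylation, 2 and 3 (5 and 5) for folding and export, 1 and 0 (1 and 2) for propeptide removal and 0 and 2 (0 and 3) for cross-linking. Partners of fibrils and basement membranes had 0 and 0 (4 and 2) and collagen receptors 0 and 0 (1 and 3). Among markers the counts were 0 and 0 (1 and 1) for lens epithelium, 0 and 2 (0 and 4) for mesenchymal cells, 0 and 0 (0 and 2) for other epithelia, 0 and 1 (0 and 1) for endothelium and 0 and 0 (1 and 0) for leukocytes.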

How the data were processed

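RNA from 12 libraries was measured, 3 in each of 4 groups, with the NEBNext Ultra kit, and the strand setting is not given in the sources used here. Per the submitters' processing notes, reads were aligned with HISAT2 2.0.5 to GRCh38 and counted with featureCounts 1.5.0-p3. The authors deposited a raw count for each gene and library, and the tests used these counts. The authors also deposited FPKM, which was used for levels and for comparing genes. Libraries held 15602183 to 17659496 reads on genes, with a median of 17205174, so genes with few reads have imprecise fold changes.

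Each comparison of 2 groups was fitted to its 6 libraries, and the difference of the H2O2 responses to all 12, in edgeR 4.0.16 (R 4.3.3) with TMM scaling and a low-count filter at a minimum count of 10. Calls used the quasi-likelihood test of edgeR, with p adjusted by Benjamini-Hochberg over all genes tested, at an adjusted p under 0.01. The size rule added a log2 fold change beyond 1 in either direction and a mean FPKM above 1 in a compared group, which are the thresholds the study names. The fits were tested on simulated data. Alternatives were RLE and upper quartile scaling, DESeq2 1.42.0, limma 3.58.1 on log2 FPKM with 1 or 0.1 added, no filter, at least 10 reads in every library, an adjusted p under 0.05, all 12 libraries in 1 fit, a replicate block, a gene length correction with a lowess curve (span 0.3), and each library left out in turn. Tables and figures were made with Python 3.11.15, pandas 2.3.3 and matplotlib 3.10.9.

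The members and lists were chosen with earlier results of these data known. The 44 members were sorted into classes: fibrillar, type IV, short-chain, type VI and alike, anchoring fibril, fibril-associated, transmembrane, multiplexin (COL15A1 and COL18A1) and other (COL26A1). The further lists were genes for hydroxylation and glycosylation, folding and export, propeptide removal, cross-linking, partners of fibrils and basement membranes, collagen receptors, and markers of lens epithelium, fibroblast or mesenchymal cells, other epithelia, endothelium and leukocytes. Members given in full are the 10 most abundant, those past the size rule in a comparison, and their partner chains, while other members with a call have fewer values. List genes with a fold change were picked after the results were seen, for a role in handling collagen or as markers of cell type, and some of them, such as VIM, passed the size rule in no comparison. Symbols of 9 similar genes, such as COL4A3BP, antisense genes and pseudogenes, were left out. Promoter windows and their start sites came from RefSeq on GRCh38.p14, and the positions of genes from the annotation in the deposited counts.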

Additional observations from a re-analysis of the deposited data

Results flagged for a closer look

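The response to H2O2 differed between the cell lines by an interaction test at an adjusted p under 0.01 for 7 collagen genes and, among list genes past the size rule, for 2, given as ATG7 KO minus WT on the log2 scale. Of all genes tested, 7.02% were higher and 7.01% lower in this test. The 7 became 14 without untreated ATG7 KO replicate 1, where 17.8% and 16.3% of all genes were called, and 12 with the length correction, where 6.44% and 8.07% of all genes were. With all libraries, the fibrillar collagens among the 7 were COL1A2 at 0.62, COL11A2 at -1.78 and COL5A3 at -1.49. The others were COL4A5 at 1.15, COL8A1 at -1.04, COL16A1 at -1.22 and COL15A1 at -3.59. The chaperone gene HSPA5 had -2.06 and the actin-binding gene TAGLN -1.02. These values rest on all 12 libraries, with untreated ATG7 KO replicate 1 among them. The call of COL5A3 ended when any of 10 libraries was left out and that of COL1A2 when any of 5 was, and COL1A2 was 0.30 with the length correction without that replicate. List genes called without passing the size rule were LOX, THY1, SERPINH1, P3H2, CREB3L1, MIA3, P3H3, LOXL1, KLHL12, TLL1 and PECAM1, and their values are not listed here.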

How the results depend on the processing

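The counts of called collagens moved with several settings, given below, and the cause was not tested. In untreated cells the 5 called between the lines became 10 with DESeq2, 8 with no filter, 11 at an adjusted p under 0.05, 10 with the length correction, 13 with all 12 libraries in 1 fit, and 16 with the length correction without replicate 1, a combination chosen after seeing the data. Leaving out 1 library gave 2 to 17, the highest without replicate 1. Under H2O2 the 24 became 15 with all 12 libraries, and 20 to 23 with a library left out. With H2O2 in WT cells the 25 became 22 to 24 with a library left out, and the length correction split them as 12 higher and 12 lower in place of 11 and 14. In ATG7 KO cells the 11 became 17 with DESeq2, 18 at 0.05, 18 with the length correction, 19 with all 12 libraries and 21 with the combination, and 5 to 21 with a library left out. The 7 differing responses became 12 with the length correction (1 higher and 11 lower) and 16 with the combination (2 and 14), and 5 to 14 with a library left out. The share of all genes called moved as well. Between untreated lines it was 7.70%, then 16.4%, 5.38%, 18.5%, 11.7%, 18.7% and 36.2% in the order given above, and 1.82% to 36.2% with a library left out. Under H2O2 it was 55.6%, 28.9% with all 12 libraries and 48.6% to 54.3% with a library left out. With H2O2 in WT cells it was 61.03%, 59.7% with the length correction and 55.2% to 59.4% with a library left out. With H2O2 in ATG7 KO cells it was 26.01%, then 35.7%, 43.2%, 32.6%, 38.7% and 58.5%, and 11.1% to 58.4% with a library left out. For the differing responses it was 14.04%, 14.5% with the length correction, 30.3% with the combination and 7.69% to 34.1% with a library left out.

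Past the size rule, the 4 in untreated cells ranged from 2 to 5 with a library left out, where all genes had 3.50% and 1.54% to 4.32%. The 7 under H2O2 were 2 with limma on log2(FPKM + 1) and 7 to 7 with a library left out, against 7.46%, 3.24% and 7.06% to 7.69% of all genes. The 8 in WT cells were 5 with that limma fit and 8 to 8 with a library left out, against 12.5%, 6.59% and 11.7% to 12.97%. The 3 in ATG7 KO cells were 6 with upper quartile scaling, 5 with DESeq2, 5 at 0.05, 7 with the length correction, 5 with all 12 libraries and 6 with the combination, and 3 to 7 with a library left out, against 11.2%, then 11.5%, 12.5%, 12.9%, 11.5%, 11.6% and 11.7%, and 7.66% to 11.8%. The 4 differing responses were 0 with that limma fit and 3 to 4 with a library left out, against 5.17%, 2.86% and 3.48% to 6.89%.

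COL4A1 changed direction. With H2O2 in WT cells it was 0.11 with the length correction, against -0.21. In ATG7 KO cells it was 0.003 (adjusted p = 0.991), and -0.062 (0.783) with upper quartile scaling and -0.12 (0.204) with the length correction, none of them called, while -0.14 with the combination and -0.17 without replicate 1 were called.

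ATG7 in untreated cells, 0.47, was called with DESeq2 at 0.47, at 0.05 at 0.47, with all 12 libraries at 0.47, with the combination at 0.47 and without replicate 1 at 0.43. With H2O2 in WT cells it was -0.18 with the length correction, -0.26 with limma on log2(FPKM + 1) and -0.36 with 0.1 added, none of them called. The difference of its responses, -0.31 and not called, was -0.44 with the combination and called (adjusted p = 0.00324). With a library left out, ATG7 ran from 0.38 to 0.54 between untreated lines, 0.11 to 0.19 under H2O2, -0.49 to -0.33 with H2O2 in WT cells, -0.74 to -0.66 in ATG7 KO cells and -0.38 to -0.21 for the difference.

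A replicate block, pairing libraries by number, gave 4, 23, 25, 8 and 7 called and 4, 7, 8, 4 and 4 past the size rule, in the order above, against 3.25%, 54.7%, 61.1%, 19.04% and 11.8% of all genes called and 2.57%, 7.40%, 12.5%, 10.6% and 4.83% past the size rule. No shared deviation by number was seen: correlations between same-numbered libraries were -0.110 to 0.130, and 4 of 12 were closest to their own number. This cannot exclude that libraries were paired in culture or preparation. All 12 libraries in 1 fit ended the calls under H2O2 of COL1A1, COL1A2, COL27A1, COL4A2, COL5A1, COL6A1, COL6A2, COL2A1 and COL25A1. Over other settings, 904 of 1023 collagen values kept their direction and their state as called or not called. Of the rest, 49 lost a call, 66 gained a call and 4 reversed in direction. With a library left out, 488 of 588 kept both, while 81 lost a call, 18 gained a call and 1 reversed. The size of the fold changes was not compared in these counts.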
